A study of Homo sapiens with 15 samples.

Results

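The chromatin loops described here are the 296326 pairs of genome positions in the H3K27ac HiChIP loop set of LNCaP cells, and the comparison is their contact frequency after 72 h of dihydrotestosterone (DHT) against that after 16 h. They were taken from the first block of rows of the deposited loop tables, each anchor pair once, and they make up 296326 of the 505995 different anchor pairs in the series. LNCaP is an established androgen-responsive human prostate cancer cell line with the luminal prostate program. The cells were held for 3 days in phenol red-free medium with charcoal-stripped serum, which is low in hormone, and then received 10 nM DHT. They were taken at 30 m and 4 h, then at 16 h and last at 72 h of hormone, beside cells given ethanol vehicle (0 m). Every group is the same unmodified line, so the vehicle cells had the same hormone-depleted start as the treated cells. Each H3K27ac time point has 2 libraries in the labels and each H3K4me3 time point has 1, but the tables hold 1 value for each loop and time point, and the sources used here do not state whether both H3K27ac libraries entered it. The question was which loops raised by androgen were held, faded or still grew between 16 h and 72 h. With 1 value a time point there was no test between 16 h and 72 h. Intervals are exact 95% intervals of read pair counts, each for 1 value and not adjusted over many. They cover counting error only and say nothing of the spread between cultures. Where values are given in time order they run from 0 m to 72 h.

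Acetylation of histone H3 at lysine 27 (H3K27ac) marks active enhancers and promoters, and trimethylation at lysine 4 (H3K4me3) marks active promoters. HiChIP joins DNA ends that lie close together in the nucleus, pulls down those on chromatin with a chosen mark and counts the joined pairs, so a loop value rises both with closer contact and with more of the mark at its anchors. Androgen acts through DNA elements that are built of a pair of inverted repeats, often beside sites of the pioneer factor FOXA1, and the kallikrein genes on chromosome 19 are among its classical targets.

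A loop joined the centres of 2 bins of 5 kb, and its contact frequency was a read pair count scaled by the authors with the trimmed mean of M values (TMM). The counts could be recovered, since each value was a whole multiple of what 1 read pair was worth. The H3K27ac loop set held 3367952 read pairs at 16 h and 2541941 at 72 h, against 1989545 to 3426705 at the other time points. The median loop held 4 read pairs at 16 h and 4 at 72 h, so single loops were compared only where they held at least 100 read pairs at both times together, which left 9266 loops. Of the 6 luminal markers 5 had promoters with H3K27ac loops (KRT8, KRT18, KLK3, FOXA1 and HOXB13) and KRT19 had none. None of the 3 basal markers (KRT5, KRT14, TP63) or the 4 neuroendocrine markers (CHGA, SYP and INSM1 among them) had one. Of the stromal markers 2 of 4 had loops, COL1A1 and VIM, and of the immune markers 1 of 3, CD3E.

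The sequences shown first are of the kallikrein locus and were picked after its values were seen. A loop that was among the largest falls there joined a region upstream of KLK3 to a bin annotated as the body of KLK2. Both of its bins held the forkhead letters TGTTTAC followed by ACA, 3 free bases and TGTTC, which is a short form of the androgen response element, in the same order and spacing. The upstream window lies in the noncoding gene ENSG00000267968 and the other in the gene KLK2, a protein-coding gene. They are shown from GRCh37, minus strand, at chr19:51354065-51354191 and chr19:51372842-51372968, with both groups of letters in capitals.
KLK3 upstream: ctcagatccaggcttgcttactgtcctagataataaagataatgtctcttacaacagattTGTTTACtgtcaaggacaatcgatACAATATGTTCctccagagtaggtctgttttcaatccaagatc
KLK2: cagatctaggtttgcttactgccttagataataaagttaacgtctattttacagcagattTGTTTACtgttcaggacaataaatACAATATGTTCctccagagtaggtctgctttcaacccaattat

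The windows shared 80 of 127 bases (63.0%) without gaps, and the other 7 pairings of forkhead windows between bins of the locus shared 22.8% to 36.2%. The pair shown was chosen as the one with the most shared bases, so that it exceeds the others was fixed by the choice. Most of the shared bases lay from the forkhead letters onward, where 57 of 67 were the same, the forkhead letters among them by construction. The forkhead letters were common, being held on either strand by 53.7% of the 143648 bins of 5 kb against 3 of the 9 bins of the locus, and the short element was held by 15.9%. The short element was added after these windows had been read. The stricter androgen response element, GNACA and TGTNC with 3 free bases between, which can overlap it, was held by 6.69% of bins and by none of the 9 bins of the kallikrein locus. Of the 10 loops that fell most, the one inside the noncoding gene LINC03000 held it, at chr5:164553211-164553251, plus strand. Of the loops at TXNIP, which rose late, one anchor held it at chr1:145438301-145438341, plus strand, just before the gene's start. Their strict elements are in capitals.
LINC03000: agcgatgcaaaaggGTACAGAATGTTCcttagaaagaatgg
TXNIP: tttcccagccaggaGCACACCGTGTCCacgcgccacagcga

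A match to these letters is a description of the sequence and not evidence of binding there.

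Contact over the whole set was slightly lower at 72 h on the deposited scale, and the decrease was largest in the strong loops. The mean contact per loop was 1.97, 2.08, 2.08, 2.41 and 2.26 in time order. The ratio of summed contact at 72 h to 16 h was -0.10 on the log2 scale (interval -0.10 to -0.09). This is the shift between the deposited scale and equal totals, and with equal totals it is 0 by construction. Strength was set from the earlier libraries alone, as the mean of 0 m, 30 m and 4 h. The 3802 strong loops, with a mean of at least 16, had mean contacts of 24.9, 32.8, 27.9, 46.2 and 38.3 in time order. Their log2 change from 16 h to 72 h was -0.27 (interval -0.28 to -0.27), and at 72 h they were still above vehicle by 0.62. The 227241 weak loops, with a mean under 2, changed by 0.05 (interval 0.04 to 0.05). Strong and weak loops moved in opposite directions, on the deposited scale and with the totals of both libraries made equal. Fewer cells with a loop and less contact per cell cannot be told apart in these bulk values.

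The gradient ran through all 8 strength classes without a step. The log2 change was 0.10 for the weakest class (mean under 0.5), -0.09 for loops of 4 to 8, -0.18 for 8 to 16, -0.24 for 16 to 32 and -0.30 for the 896 loops of at least 32. By length, the 23558 loops of 5 kb, which join neighbouring bins, changed by -0.19, and the 7 longer classes by -0.03 to 0.01. Strength and length could be separated in part, with a change of -0.26 over the 257 strong loops that span 20 kb or more (interval -0.29 to -0.24). In the H3K4me3 libraries the same loops changed by -0.31 over all loops and -0.63 over the strong ones on the deposited scale. With equal totals within each mark, which shifts every H3K4me3 value by 0.31, strong loops were at -0.32 in H3K4me3 and -0.17 in H3K27ac, and weak loops at 0.17 and 0.14.

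**Figure D1:**
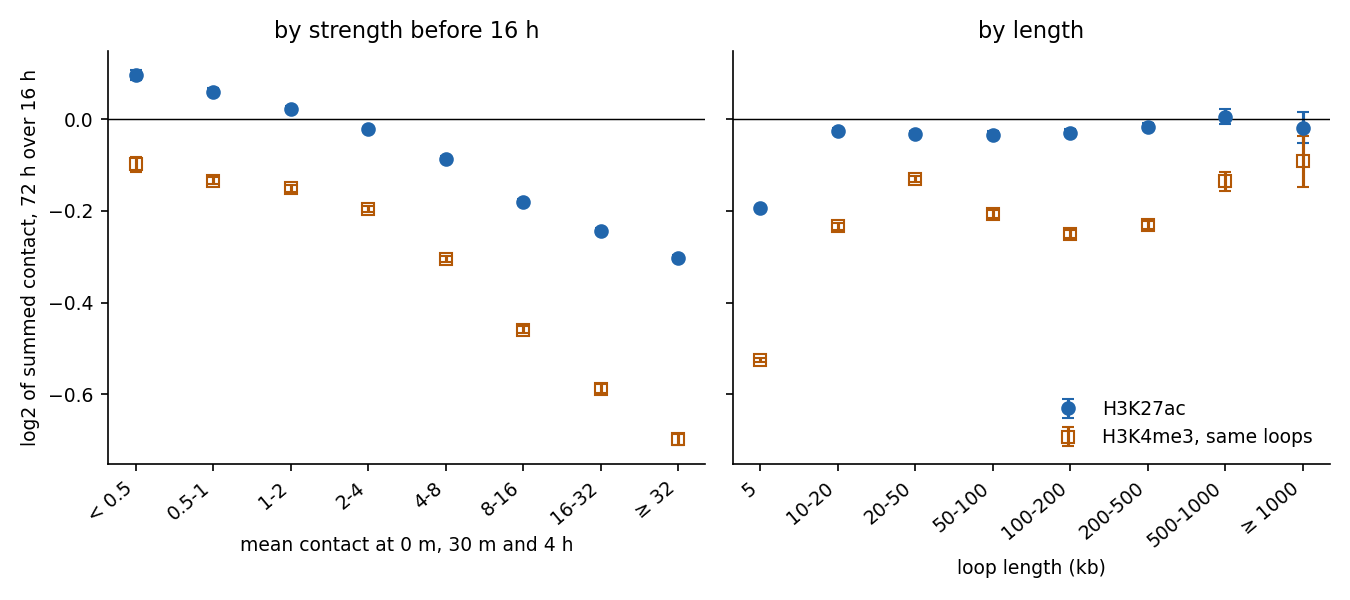
Log2 ratio of summed contact at 72 h to 16 h for the H3K27ac loop set, by mean contact at 0 m, 30 m and 4 h (left) and by loop length (right). Filled circles are H3K27ac and open squares the same loops in the H3K4me3 libraries, with bars for the 95% counting interval. H3K27ac runs from 0.10 in the weakest class to -0.30 in the strongest.

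Of the 9266 loops with enough read pairs, 1310 were lower at 72 h by at least 1.5-fold and 122 were higher, with 7834 in between. These are 14.1% and 1.32% of the loops counted, and with 1 value a time point a call is a fold past the threshold and no more. The median change of the counted loops was -0.21. The share of lower loops changed little as the minimum was raised, and that of higher loops shrank. At a minimum of 200 read pairs 15.2% were lower and 0.565% higher, and at 400 read pairs 16.7% were lower and 3 of 1051 loops were higher. At 50 read pairs 3.73% were higher. The higher calls were therefore concentrated among loops with few reads. The split also followed the scale. Higher loops were 8.52% of all calls on the deposited scale, 21.8% when the read pairs of both libraries were scaled to equal totals, a shift of 0.10 in every log2 value, and 48.5% (450 higher, 478 lower) when the median of the counted loops was set to 0. The loops nearest to the fold had log2 changes of 0.59 and 0.58 on either side of it when higher and of -0.59 and -0.58 when lower.

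**Figure D2:**
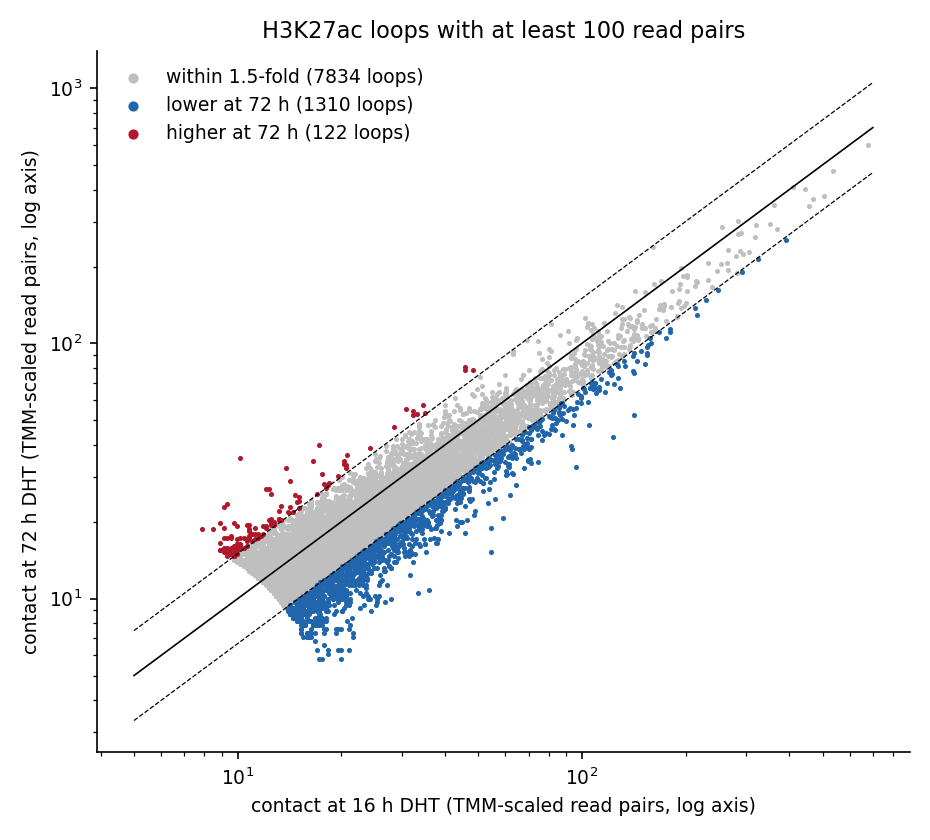
Contact at 72 h against contact at 16 h, both on log axes in TMM-scaled read pairs, for the 9266 loops with at least 100 read pairs at both times together. The solid line is equality and the dashed lines mark 1.5-fold, with 1310 loops in blue below and 122 in red above.

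Lower loops were more often without a gene's start at an anchor than the counted loops as a whole. A promoter was taken as the start of a protein-coding gene with 2.5 kb on either side, and an anchor as promoter where its central 1 kb overlapped one. Among counted loops without a promoter anchor 934 were lower (17.6%), against 305 of those with 1 promoter anchor (10.1%) and 71 of those with both (7.39%). Likewise 71.3% of the lower loops had no promoter anchor, against 57.2% of all counted loops and 40.2% of the higher ones. Lower loops were also poorer in GC, with a median of 44.2% over both bins against 47.8% for the higher loops. In the fifth of all loops with the least GC, up to 39.8%, 25.1% of counted loops were lower, against 11.1% to 15.2% in the other classes. The part of base composition in these differences was not tested. The strict androgen response element was held by 15.1% of the lower loops, 12.8% of the counted loops and 8.20% of the higher ones. The forkhead letters were held by 78.7%, 74.5% and 66.4%.

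Most loops that androgen had raised by 16 h were still raised at 72 h. Of the 19143 loops with at least 50 read pairs at 0 m and 16 h together, 5296 (27.7%) had gained at least 2-fold by 16 h. Their mean contact was 11.1, 17.4, 13.6, 30.8 and 24.8 in time order, a change of -0.31 from 16 h to 72 h (interval -0.32 to -0.31). Of the 3857 with enough read pairs to follow, 3102 (80.4%) stayed within 1.5-fold of their 16 h value, 741 (19.2%) faded and 14 (0.363%) grew further. At 72 h 3502 of them (90.8%) were still at least 1.5-fold above vehicle and 22 were below it, against 55.2% and 14.5% of all counted loops. The vehicle and 16 h libraries chose these loops and were the bases of these comparisons, so both a high share over vehicle and a fall from 16 h were favoured by the choice itself. All counted loops were kept by their read pairs at 16 h and 72 h. That minimum also favours, in every share of counted loops, values above vehicle and a highest value at those times.

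Loops chosen without either of the compared libraries gave a smaller fall. Of 35174 loops with at least 50 read pairs at 0 m, 30 m and 4 h, 7482 (21.3%) were raised early, with a mean of 30 m and 4 h at least 1.5-fold over vehicle. Their contact was 5.87 in vehicle, 11.3 and 9.39 at the early times, 13.1 at 16 h and 11.5 at 72 h, a late change of -0.19. Among the 2146 that could be followed, 1797 (83.7%) persisted, 322 (15.0%) faded and 27 (1.26%) grew, near the shares of all counted loops. Their highest value fell at 16 h in 58.1% and at 72 h in 20.04%, near the 60.5% and 20.17% of all counted loops. Another choice came from the other mark. Of 15768 loops with enough H3K4me3 read pairs, 1714 (10.9%) had gained 1.5-fold in H3K4me3 by 16 h, and in H3K27ac these changed by -0.20 to 72 h, with 63 of 520 fading (12.1%). At 72 h 301 of these 520 (57.9%) were at least 1.5-fold above vehicle and 54 (10.4%) below it, near the 55.2% and 14.5% of all counted loops. Early-gained and H3K4me3-gained loops thus faded at shares near that of all counted loops (14.1%).

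The lower loops stood at 72 h near their level in vehicle. The 1310 lower loops had median contacts of 12.9, 14.3, 14.7, 24.4 and 14.2 in time order. In 96.6% of them the 16 h value was above vehicle, as in 92.9% of all counted loops, a share that the minimum of read pairs at 16 h and 72 h favours. The highest of the 5 values lay at 16 h in 1166 (89.0%), against 60.5% of all counted loops, a feature that the choice of low 72 h against 16 h favours. At 72 h 449 (34.3%) were still at least 1.5-fold above vehicle and 423 (32.3%) were below it, against 55.2% and 14.5% of all counted loops. The 122 higher loops had medians of 10.6, 14.8, 11.8, 11.1 and 19.1, with 91 of them (74.6%) at least 1.5-fold above vehicle at 72 h. The choice by 72 h and 16 h values favours each of these shares. Their median was nearly the same in vehicle and at 16 h, with a small rise at 30 m, and was highest at 72 h.

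Of the 10 loops with the largest falls, 8 joined neighbouring bins, and 1 had a protein-coding start at an anchor. The first was within ANKH, which encodes a pyrophosphate transporter, at chr5:14717001-14723000. Its contact was 11.8, 18.5, 29.1, 54.4 and 15.3 in time order, a log2 change of -1.83 (interval -2.27 to -1.42). A loop within ABCC1, a drug efflux transporter gene, went from 19.96 at 16 h to 5.79 at 72 h (-1.79), and one within PXDN, a gene of a matrix peroxidase, from 21.0 to 6.32 (-1.73). The others were within LINC00595 (-1.66), at the start of ELAVL3 (-1.66), in LINC03000 (-1.63), beside and in ST3GAL1 (-1.61), in an intergenic bin 83219 bp or more from the nearest protein-coding start, that of GOLGA7 (-1.61), and a 180 kb loop within PPFIA2 (-1.59), which had been at 19.7 in vehicle and was at 18.3 at 16 h and 6.05 at 72 h.

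The remaining member was the 20 kb loop between the region upstream of KLK3 and KLK2, whose sequences are shown above. Its contact was 18.5, 31.5, 43.2, 36.1 and 10.8 in time order, so that it peaked at 4 h and ended below vehicle, with a log2 change of -1.74 (interval -2.27 to -1.24). It was 1 of a cluster. Where loops past the fold were joined across gaps of up to 50 kb, a grouping made after the values were seen, the span chr19:51337001-51413000 with the starts of KLK15, KLK2 and KLK3 held 7 counted loops, all 7 of them lower. The mean contact of the 13 loops in the span was 16.5, 23.1, 35.0, 33.4 and 13.9 in time order (log2 change -1.27, interval -1.39 to -1.14). KLK3 encodes prostate-specific antigen and KLK2 a related kallikrein.

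The loop between the upstream region and the start of KLK3 was the one loop of that promoter. It went from 30.6 in vehicle through 50.2 and 89.7 to 96.0 at 16 h and back to 32.9 at 72 h, a change of -1.54, and in H3K4me3 the same loop went from 25.1 at 16 h to 5.50 at 72 h. The loop from KLK2 to the neighbouring bin went from 93.4 to 38.7 (-1.27), and the loop inside the noncoding gene KLKP1 from 54.4 to 18.9 (-1.52). Every one of the 7 was higher at 16 h than in vehicle. At 72 h 5 of the 7 were below vehicle and 2 above it.

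A second such span lay at SLC45A3, which encodes a solute carrier known as prostein, at chr1:205632001-205678000. All 4 of its counted loops were lower, and the mean of the 5 loops there was 18.2, 23.5, 28.8, 44.2 and 19.5 in time order (log2 change -1.18, interval -1.36 to -1.01). The strongest, upstream of the gene's start, went from 35.3 in vehicle to 123.1 at 16 h and 42.9 at 72 h (-1.52). Over the genome the lower loops formed 1070 such spans, of which 915 held a single loop and 8 held at least 5. The spans with the most lower loops, 9 each, were within PPFIA2 and at CARTPT and MCCC2. At CARTPT and MCCC2 mean contact over 58 loops was 8.05 at 16 h and 4.93 at 72 h (-0.71).

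**Figure D3:**
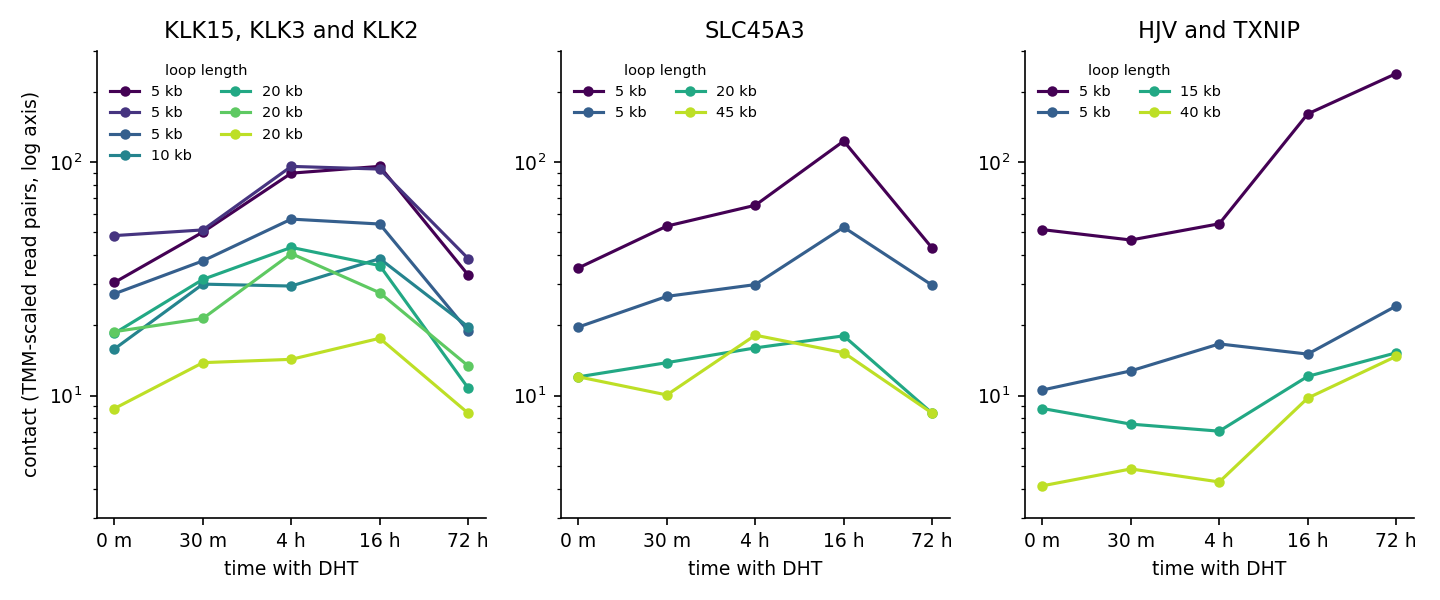
Contact of each counted loop, on a log axis in TMM-scaled read pairs, at the 5 time points for the spans of KLK15, KLK3 and KLK2 (7 loops), SLC45A3 (4 loops) and HJV and TXNIP (4 loops). The kallikrein and SLC45A3 loops rose to 4 h or 16 h and fell by 72 h, while the loops at TXNIP were highest at 72 h.

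Late rises were fewer, and 7 of the 10 largest had a protein-coding start at an anchor. The largest was the 5 kb loop at the start of ZNF441, which encodes a zinc finger protein, with contacts of 13.5, 25.6, 15.4, 10.2 and 35.5 in time order (log2 change 1.80, interval 1.32 to 2.31). A loop at ZNF101 went from 9.13 at 16 h to 22.9 at 72 h (1.33) and 1 within ZNF627 rose by 1.22 from 17.2. A loop within RIMKLB rose from 9.34 to 23.4 (1.33). The other 6 lay at the starts of NELFE and SKIC2 (1.25), at VAMP2 (1.24), between PPDPF and PTK6 (1.15), at BOP1 and HSF1 (1.15), at F12 and GRK6 (1.14) and at the noncoding GTF2IRD1P1 (1.12). NELFE encodes a subunit of the negative elongation factor and HSF1 the heat shock transcription factor. Several of these loops were at 72 h near their level at 30 m or 4 h, as at VAMP2 (22.6, 25.2, 32.9, 13.8 and 32.6 in time order), where 16 h was the low point. In 30 of the 122 higher loops (24.6%) 16 h was the lowest of the 5 values, against 1.97% of all counted loops, and the choice of loops high at 72 h against 16 h favours this. In H3K4me3 all 10 of these loops were lower at 72 h than at 16 h, with ZNF441 going from 27.8 to 17.0 and the loop of NELFE from 71.7 to 47.3. Loops in general fell in that mark on the deposited scale. Those with enough H3K4me3 read pairs had medians of -0.55 within the H3K27ac fold and -0.44 above it, so the count of 10 is not particular to these loops. The 10 loops that fell most held little H3K4me3, from 0.387 to 7.54 at 16 h.

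Growth that began at 16 h and went on was seen at TXNIP, which encodes a thioredoxin-binding inhibitor of glucose uptake and was singled out after its values were seen. Its 5 kb loop at chr1:145437001-145443000 had contacts of 51.4, 46.4, 54.5, 160.9 and 239.5 in time order, with 758 read pairs at 16 h and 910 at 72 h (0.57, interval 0.43 to 0.71), just under the fold. Of the 4 counted loops in the span 2 passed it, the 40 kb loop (9.77 to 14.7) and the next 5 kb loop (15.1 to 24.2). In H3K4me3 the first loop went from 178.8 to 116.3. In that mark all loops changed by -0.31 and strong loops by -0.63 on the deposited scale, so this fall is not particular to the loop. No span of higher loops held more than 2.

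Summed over all loops of a promoter, which way the calls leaned depended on the scale, the read pair minimum and the loops taken. Of 14092 promoters with a loop, 8050 had at least 100 read pairs. Of these 174 were higher at 72 h by 1.5-fold (2.16%) and 189 lower (2.35%), with a median log2 change of -0.04. On equal totals the counts were 298 and 84 (78.0% higher among calls, against 47.9%), and centred on the median they were 208 and 137 (60.3%). Taking only a promoter's strongest loop gave 78 and 354, and so 18.1% higher among calls. At a minimum of 200 read pairs the counts were 54 and 114, and with loops of at least 20 kb they were 127 and 109. The interval lay above 0 for 654 promoters (8.12%) and below 0 for 1192 (14.8%).

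Among promoters with at least 200 read pairs, 5 of the 12 largest rises belonged to zinc finger genes of chromosome 19. ZNF441 went from 63.7 at 16 h to 152.4 at 72 h (log2 change 1.26, interval 1.05 to 1.46), after 60.8 in vehicle. ZNF442 went from 46.7 to 99.2 (1.09) and ZNF101 from 23.1 to 48.2 (1.06). ZNF564, which shares its loops with ENSG00000196826, rose by 1.05 and ZNF844 by 0.89. The others were PHYH, a peroxisomal enzyme of phytanic acid breakdown (38.0 to 84.2, 1.15), PPDPF (0.92), VAMP2, a vesicle fusion protein (0.91), SLC43A2, an amino acid transporter (0.88), DXO, an RNA decapping enzyme (0.87), ICE2, of the little elongation complex (0.86), and STAT3. STAT3, a transcription factor of cytokine signalling, had 48.5, 79.0, 51.5, 62.8 and 113.4 in time order (0.85, interval 0.63 to 1.07). Of these 12 promoters 8 were lower at 16 h than in vehicle, as were 23.6% of all counted promoters. The log2 changes of the 8 from vehicle to 16 h ran from -0.76 (ICE2) and -0.73 (PPDPF) to -0.07 (ZNF844), and the choice by a rise from 16 h favours a low 16 h value.

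The largest fall was that of KLK3 (-1.54). The others included CARTPT, a neuropeptide precursor gene (72.8 at 16 h to 32.4 at 72 h, -1.17), IGIP (-1.17), PKP1, a desmosomal plakophilin (-1.10), GPRIN2 (-1.08), FABP12, a fatty acid binding protein (-1.03), SGK3, a kinase related to AKT (93.0 to 45.8, -1.02), CTXN3 (-0.95), RDH12, a retinol dehydrogenase (-0.94), WFDC2, a secreted protein (-0.89), and SLC23A1, a vitamin C transporter (-0.83). RDH12, at 134.9 in vehicle and 123.1 at 16 h, ended at 64.2, which is -1.07 against vehicle. In 11 of the 12 one loop of 5 kb had fallen past the fold and was the only counted loop. PKP1 had 2.

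Textbook androgen-induced genes were lower at 72 h by the median of the list. Of 30 listed, 23 had a loop and 18 enough read pairs. KLK2, taken at its annotated start, had 33 read pairs and was not counted. None was higher by 1.5-fold and 6 were lower, where 2.35% of all promoters were, and the interval lay below 0 for 11, against 14.8% of all promoters, and above 0 for none, against 8.12%. On equal totals 5 were lower. Their median change was -0.45, against -0.04 over all promoters. The list was chosen with earlier results of these data known, so its direction is a description. For 16 h against vehicle, which shares the 16 h library, the same genes had a median of 0.65, and at 72 h against vehicle it was 0.07, where all promoters had 0.33 and 0.31.

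The 6 lower members included KLK3, SLC45A3, KLK4 and UAP1. KLK4, a further kallikrein, had 57.3, 74.7, 90.4, 77.7 and 45.8 in time order (-0.76). SLC45A3 went from 59.0 at 16 h to 34.7 at 72 h (-0.76). Both ended below vehicle. UAP1, an enzyme of UDP-N-acetylglucosamine synthesis, had 67.3, 47.3, 76.7, 140.3 and 91.8 (-0.61, or -0.52 and inside the fold on equal totals) and stayed above it, as did FKBP5, a cochaperone of steroid receptors, with 74.05, 145.7, 115.8, 136.9 and 93.7 (-0.55). CAMKK2 (-0.56), ABCC4 (-0.45), ELOVL5 (-0.45) and ELL2 (-0.43) had intervals below 0 too. PLPP1, MAF, PMEPA1, ZBTB16, EAF2 and TPD52 had intervals that spanned 0, from -0.27 to 0.12. ACSL3, an acyl-CoA synthetase gene, had 39.4, 45.5, 36.5, 78.3 and 86.6 (0.14, interval -0.07 to 0.36) and was the highest of the 18 counted members.

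**Figure D4:**
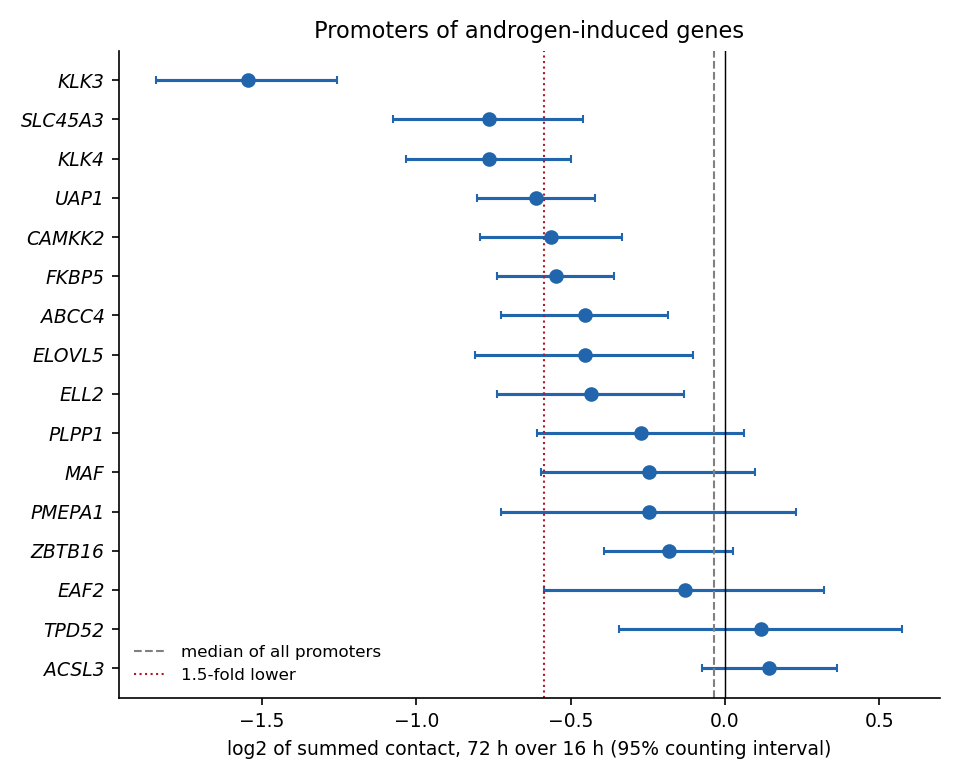
Log2 ratio of summed contact at 72 h to 16 h for 16 of the 18 androgen-induced promoters with at least 100 read pairs, with 95% counting intervals. The dashed line is the median of all promoters (-0.04) and the dotted line marks 1.5-fold lower, past which 4 of the genes shown lie.

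Promoters of genes that androgen holds down were not higher late. All 6 counted promoters of the androgen-repressed list were below 0, as were 55.3% of all counted promoters, with a median of -0.30 and none past the fold. FOLH1, which encodes prostate-specific membrane antigen, had 206.6, 125.8, 163.0, 295.1 and 198.9 in time order (-0.57, interval -0.70 to -0.44). BCHE, a cholinesterase gene, had 104.9, 23.8, 82.7, 47.6 and 36.6 (-0.38), and CDK8 (-0.17) was among the least changed. The glucocorticoid-shared list had a median of -0.09 and no call in 8. FKBP5 (-0.55) and DUSP1 (-0.26) were its lowest, and PER1, a clock gene, went against it from 60.3 at 16 h to 87.1 at 72 h (0.53, interval 0.30 to 0.76), above CITED2 (-0.02).

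Luminal transcription factor genes were by the median slightly lower than at 16 h and above vehicle, at 72 h by little more than all promoters. Of 11 counted, 10 were below 0, against 55.3% of all counted promoters, and 1 was past the fold, against 2.35%, with a median of -0.17. Against vehicle, and sharing the 16 h library, their median was 0.64 at 16 h and 0.39 at 72 h, where all promoters had 0.33 and 0.31. FOXA1, the pioneer factor of the luminal program, had 228.0, 192.0, 182.3, 388.5 and 344.2 in time order (-0.17). SPDEF, an ETS factor, was the second lowest (-0.50) and ended below vehicle (94.6 in vehicle, 73.4 at 72 h). TBX3 (-0.03) and XBP1 were the highest. XBP1, of the unfolded protein response, went from 294.9 to 324.2 (0.14, interval 0.02 to 0.25).

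In the metabolic and growth lists the medians lay within 0.10 of that of all promoters. Those between -0.10 and 0 turn positive on equal totals, which holds for the glucocorticoid-shared, cell cycle, growth factor and polyamine lists and for all promoters (0.06). Sterol and fatty acid synthesis genes had a median of 0.04 over 16 counted, with 2 lower, where 2.35% of all promoters were, among them FASN, the fatty acid synthase (151.4 to 96.8, -0.64). On equal totals FASN was at -0.55, inside the fold, and 1 of the list was lower. SCD, the stearoyl-CoA desaturase, was at 0.34 on 107 read pairs. Secretory and unfolded protein response genes had -0.13 over 13 counted and no call, from DNAJB9 (-0.35) and PDIA4 (-0.32) to CREB3L2 (0.28) and ERN1 (0.25). Cell cycle and replication genes had -0.09 over 15 with no call, from CCND1, cyclin D1 (230.4 to 164.7, -0.48), and TYMS (-0.34) to UBE2C (0.41) and E2F1 (17.8 to 26.3, 0.56). Growth factor and kinase signalling genes had -0.04 over 13. VEGFA alone was lower by the fold (217.4 to 140.8, -0.63), where 2.35% of all promoters were. MAP2K4 was at -0.48, and SPRY1 (0.56) was highest. On equal totals VEGFA was at -0.53, inside the fold.

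Immediate early genes, which respond first to growth and stress signals, had a median of 0.09 over 8 counted. JUN went from 110.4 at 16 h to 137.1 at 72 h (0.31, interval 0.13 to 0.49) and IER2 from 100.0 to 121.6 (0.28), beside DUSP1 (-0.26) and EGR3 (-0.20). Polyamine genes, which serve the prostate's high polyamine output, had -0.05 over 6, from PAOX (-0.38) and SAT1 (-0.28) to ODC1 (0.04) and SRM (0.04). Cytosolic ribosomal protein genes had -0.15 over 24 with no call, from RPS19 (-0.56) and RPS15 (-0.34) to RPL23 (0.10) and RPL19 (0.09). None of the gene lists described so far had a counted promoter higher by 1.5-fold on the deposited scale, where 2.16% of all counted promoters were. Some listed promoters under the minimum of 100 read pairs were past the fold and are left out. On equal totals the counted promoters of PER1 (0.63), E2F1 (0.66) and SPRY1 (0.65) passed it.

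The study also sorted androgen-induced genes by the time of their highest nascent transcription. Those lists were chosen on the same time course and are not independent of it. The median log2 change from 16 h to 72 h was -0.15 for the class peaking at 30 m (25 counted promoters), -0.09 for 4 h (45), -0.04 for 16 h (93) and -0.01 for 72 h (62). Past the fold 0, 3, 4 and 0 promoters were lower and 0, 0, 0 and 1 higher, where 2.35% and 2.16% of all promoters were. On equal totals the medians of the last 3 classes are positive (0.01, 0.06 and 0.08).

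The zinc finger genes were examined as a family after 5 of them had appeared among the largest rises. Genes named ZNF and a number lie in large clusters on chromosome 19, and most encode DNA-binding repressors with a KRAB domain. Of the 147 counted on chromosome 19, 16 (10.9%) were higher by 1.5-fold and none lower, with a median of 0.09. The 139 ZNF promoters on other chromosomes had 3 higher and 1 lower and a median of -0.03, and the 577 other promoters of chromosome 19 had 19 higher, 14 lower and a median of -0.02. On equal totals the medians are 0.19, 0.06 and 0.07. The clustered promoters share loops, so that the 147 rest on 2100 different loops, whose summed contact changed by 0.16 (interval 0.13 to 0.19), and the 16 higher ones on 344. Their median summed contact was 22.9, 33.5, 23.7, 29.9 and 35.0 in time order. In H3K4me3, on the deposited scale, the same promoters had a median of -0.36, against -0.34 for ZNF promoters elsewhere, -0.41 for the others of chromosome 19 and -0.33 for all others. Their median GC was 47.6%, against 48.6%, 54.4% and 47.8%, and the part of GC was not tested. The family was picked for its rise, so these values carry no test.

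**Figure D5:**
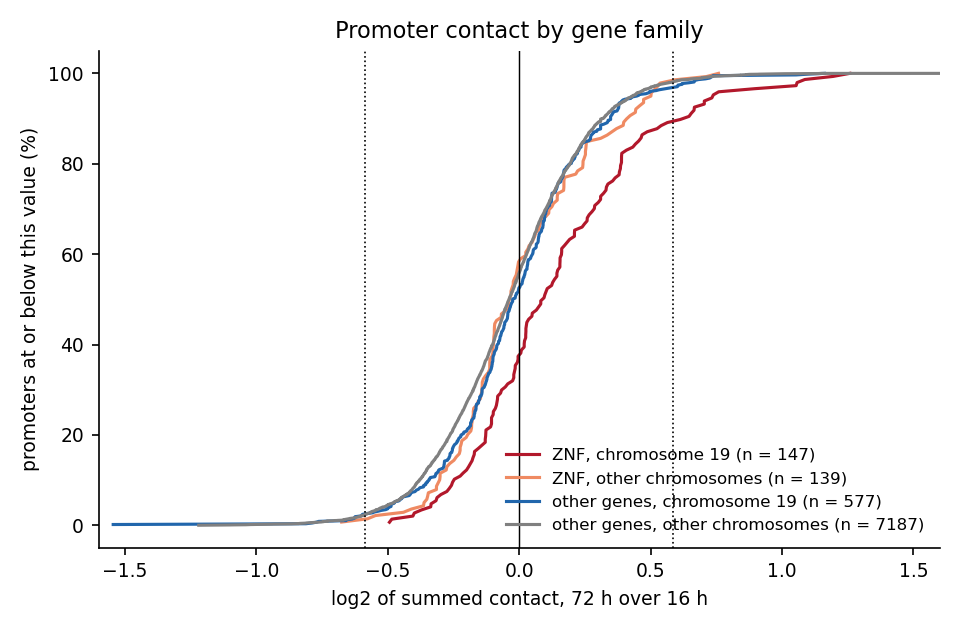
Share of promoters at or below each log2 ratio of summed contact at 72 h to 16 h, for ZNF genes on chromosome 19 (147), ZNF genes elsewhere (139), other genes of chromosome 19 (577) and all others (7187). Dotted lines mark 1.5-fold, and the curve of the chromosome 19 ZNF genes lies to the right of the other 3.

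Loops lower, within the fold and higher in H3K27ac were also followed in H3K4me3. Over 4526 loops with at least 100 H3K27ac and 50 H3K4me3 read pairs, the changes had Pearson's r of 0.10 and Spearman's rho of 0.09. The points are loops of the same pair of time points, share anchors with each other and carry counting error in both marks, so a correlation this weak is no finding. Of the 393 lower H3K27ac loops among them, 49.9% were also lower by 1.5-fold in H3K4me3 on the deposited scale, as were 45.3% of the 4050 loops within the fold and 28.9% of the 83 higher ones. The medians in H3K4me3 were -0.58, -0.55 and -0.44 on the deposited scale and -0.28, -0.25 and -0.13 with equal totals of the H3K4me3 libraries, which would also lower the shares past the fold.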

How the data were processed

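LNCaP HiChIP loop tables for H3K27ac and H3K4me3, at 0 m and 4 times of 10 nM DHT, were read as deposited. Per the labels and the study's methods, the authors trimmed reads (Trim Galore 0.5.0), aligned them to hg19 and filtered pairs with HiC-Pro 3.1.0 (Bowtie2), called loops at 5 kb with FitHiChIP, and scaled contact by TMM within each mark. The deposited contact frequency, a signal in TMM-scaled read pairs, was divided by its smallest positive value. All values came out whole (100% within a tolerance of 1e-06), which gave the read pairs used for minimums and intervals. Depth per time point was 1989545 to 3426705 H3K27ac read pairs.

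A log2 change is the ratio of summed contact at 72 h to 16 h with an exact Clopper-Pearson interval (scipy 1.17.1). There was 1 value per loop and time point, hence no test, and no count model was run. The fold was 1.5 and the minimum 100 read pairs together. Gene starts came from Gencode release 44 on GRCh37, which is the same assembly as hg19. No anchor lay past a chromosome end. Named promoters were the 12 largest rises and the 12 largest falls with at least 200 read pairs and an interval that excluded no change, genes sharing all loops given as one. Named loops were the 10 largest in each direction. All counted androgen-induced members and, of the other lists, the 2 highest and the 2 lowest could be named, except for some genes that are not reported here. The spans at KLK2, SLC45A3, CARTPT, PPFIA2 and TXNIP and the ZNF family were described after their values were seen, and promoters of the Y chromosome were left out. The loop set, the members and the lists were chosen with earlier results of these data known. The interval was tested on simulated data. Scaling, length, loop set, minimum, fold and assignment were varied.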

Additional observations from a re-analysis of the deposited data

How the results depend on the processing

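No paired analysis was possible because each time point had 1 deposited value, the tables carry no replicate number and no result came from a test. No value past the fold changed sign under any alternative tried, and the change of all loops is 0 by construction with equal totals. Values are log2 changes unless named as counts, and the cause of a shift was not tested unless the setting itself shows it. With equal totals, strong loops were at -0.17, weak loops at 0.14, loops gained at 16 h at -0.22, gained early at -0.092 and gained in H3K4me3 at -0.10. On that scale 233 loops were higher and 838 lower, and 298 promoters higher and 84 lower. With loops of at least 20 kb only, the same order was -0.027 for all loops, then -0.26, 0.038, -0.30, -0.13 and -0.15, with 18 loops higher and 172 lower and 127 promoters higher and 109 lower. With loops absent from the H3K4me3 set, strong loops were at -0.28, weak at 0.055 and H3K4me3-gained at -0.21, with 66 loops higher and 814 lower and 102 promoters higher and 134 lower. Strength over all 5 time points put strong loops at -0.26, and strength from 16 h and 72 h put strong and weak loops at -0.25 and 0.042. A minimum of 100 read pairs for the choice gave -0.32, -0.23 and -0.22 for the 3 gained sets, and the median over loops gave -0.11 for early-gained and -0.083 for H3K4me3-gained loops. Centred on a median of 0, 450 loops were higher and 478 lower. At 2-fold, 15 and 169 loops and 16 and 14 promoters were higher and lower. At 50 read pairs these were 805 and 3131 loops and 365 and 320 promoters, and at 200 they were 20 and 538 loops and 54 and 114 promoters. The strongest loop alone gave 78 promoters higher and 354 lower. The androgen-induced median lay between -0.65 and -0.30 under its 6 alternatives. Of 65 alternative values for the 11 main results, 49 moved, by more than the counting interval or, for counts, by more than 1.5-fold, and 16 did not. The size of the main results thus depended on the settings. Of 252 further values for named promoters, loops and other lists, computed under alternatives chosen after seeing the data, 20 moved by more than the counting interval or spread and 15 changed sign, none of them past the fold. These were 11 medians of the other lists and 4 values of PLPP1, MAF and ZBTB16. The shift of 0.10 with equal totals also turns positive any value between -0.10 and 0, such as the median of all promoters (0.06). Depth limits single loops: at a median of 4 read pairs a 1.5-fold change in most loops was not detectable.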
